A study of Mus musculus with 12 samples.

Results

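Mitochondrial ribosomal proteins are the nuclear-coded proteins of the mitoribosome, the ribosome inside mitochondria. Their genes were taken as all rows of the polyadenylated RNA table whose symbol is Mrpl or Mrps followed by a number. This gave 77 of the 57683 genes in the table, 48 of the large subunit (Mrpl) and 29 of the small subunit (Mrps), on 17 chromosomes. Mrpl48-ps, a pseudogene of Mrpl48, is among the 48, which leaves 76 genes without it. The study compared cardiomyocytes, the contracting muscle cells of the heart, with nonmyocytes of the same 3 hearts, which came from wild-type female FVB/NJ mice aged 12 weeks. The hearts were perfused with collagenase by the Langendorff method and the fractions were parted by gravity. RNA of the cardiomyocytes was taken directly after isolation, whereas the nonmyocytes were first grown in dishes, 2 passages by the protocol and 1 by the cell type label, into cultures that were mostly fibroblasts. Cell type and culture therefore cannot be told apart in this comparison. Each fraction gave 3 polyadenylated RNA libraries, named here by fraction and number, and these 6 of the 12 libraries of the series were used.

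The mitoribosome translates the few messenger RNAs of mitochondrial DNA, all of which code for subunits of oxidative phosphorylation, the pathway that makes most of a cardiomyocyte's ATP. Its RNA is made in the mitochondrion, while its proteins are coded in the nucleus, made in the cytosol and imported. The small subunit reads the messenger RNA and the large subunit joins the amino acids, and both carry proteins with bacterial counterparts beside others found only in mitochondria.

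The cardiomyocyte libraries held 5956831, 26851830 and 26195634 counts and the nonmyocyte libraries 10792544, 8126422 and 10243774 counts. Levels are given in CPM, the count scaled to a common library size, after scaling by the trimmed mean of M values (TMM), with means ± SD over the 3 libraries of a fraction. One count was worth 0.0485 to 0.194 CPM in the cardiomyocyte libraries and 0.0746 to 0.0966 CPM in the nonmyocyte libraries. The 8 cardiomyocyte markers summed to 110500.0 to 147500.0 CPM in cardiomyocytes and 770.8 to 1032 CPM in nonmyocytes, and the 8 fibroblast markers to 289 to 444 CPM in cardiomyocytes and 15320.0 to 16610.0 CPM in nonmyocytes. The 6 endothelial markers summed to 470.4 to 982 CPM in cardiomyocytes and 59.3 to 73.6 CPM in nonmyocytes. Of these 6, Pecam1, with 81.1% of its exon bases in other annotated genes, had at most 0.155 CPM in cardiomyocytes and 0 in nonmyocytes. The 5 macrophage markers reached 33.9 to 45.3 CPM in cardiomyocytes and 89.3 to 99.2 CPM in nonmyocytes, and the 5 smooth muscle and pericyte markers 432 to 654 CPM in cardiomyocytes and 6151 to 7701 CPM in nonmyocytes. The latter 5 were split: 2 were higher and 3 lower in cardiomyocytes (edgeR adjusted p under 0.05), with log2 fold changes between -5.995 and 5.09. No other listed marker of these classes was at 0 throughout a fraction. Genes of cell division, 6 of them in the table, summed to 30.6 to 45.3 CPM in cardiomyocytes and 181.7 to 211 CPM in nonmyocytes. The part of these other cell types and of division in the results below was not tested. Genes on the mitochondrial chromosome took 3.06%, 6.12% and 5.85% of the counts in cardiomyocytes and 0.321%, 0.405% and 0.236% in nonmyocytes.

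Transcripts of both subunits were higher in cardiomyocytes. Of the 48 large subunit genes 45 passed the filter on low counts, and 39 of these were higher in cardiomyocytes, 0 lower and 6 not called (edgeR's quasi-likelihood test, two-sided, Benjamini-Hochberg adjusted p under 0.05 over 14734 genes). Of the 29 small subunit genes 28 passed, and 26 were higher, 0 lower and 2 not called. Over all genes tested, 31.6% were called higher and 32.1% lower in cardiomyocytes, 63.7% in either direction. Without adjustment, Mrpl52 was the 1 large subunit gene with a lower level at p under 0.05, and 0 small subunit genes met that mark. The DESeq2 Wald test called Mrpl52 lower after adjustment, and limma voom called 0 members lower. The median log2 fold change, cardiomyocytes over nonmyocytes, was 1.62 in the large and 1.17 in the small subunit, a 3.07-fold and a 2.26-fold higher level, beside a median of -0.02 over all genes tested. With no more than the library totals as scaling, the median of all genes moved to -0.70 and the calls over all genes to 3177 higher and 7106 lower, beside 4657 and 4732 under TMM. In that fit 29 large and 15 small subunit genes were called higher, and 2 large (Mrpl17 and Mrpl52) and 1 small (Mrps6) were called lower. Relative to all genes, the large subunit then stood at 1.65 and the small subunit at 1.19, beside 1.64 and 1.19 under TMM. A change of scaling shifts all genes by nearly the same amount, so this distance could hardly move and is no separate evidence.

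**Figure D1:**
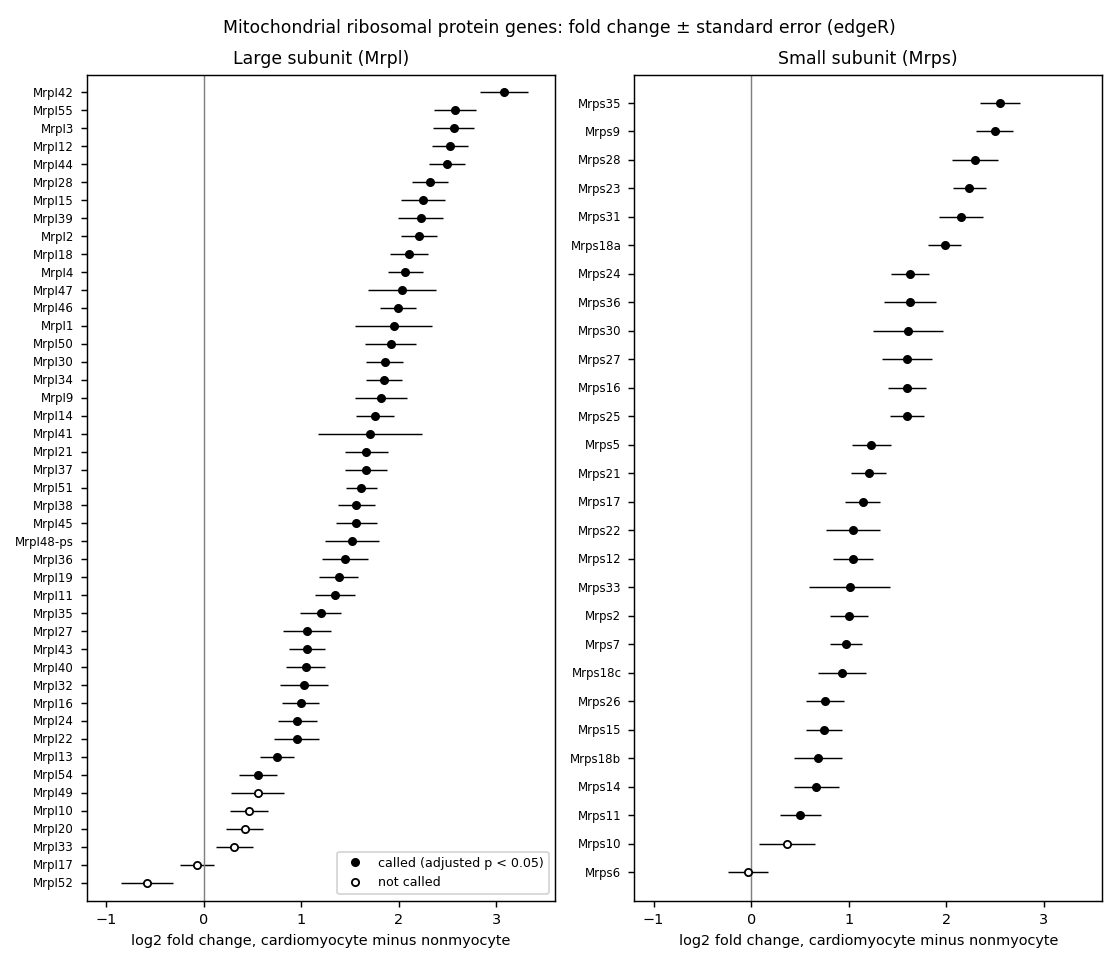
Log2 fold change (cardiomyocyte minus nonmyocyte) with its standard error for the 45 large and 28 small subunit genes tested, one gene per line, filled where the edgeR adjusted p was under 0.05. The values run between 3.08 for Mrpl42 and -0.58 for Mrpl52 in the large subunit and between 2.55 for Mrps35 and -0.03 for Mrps6 in the small subunit.

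Counts of all 48 large subunit genes together made up 0.298%, 0.297% and 0.270% of the counts of the cardiomyocyte libraries, against 0.171%, 0.172% and 0.148% of the nonmyocyte libraries. For the 29 small subunit genes the shares were 0.153%, 0.159% and 0.145% in cardiomyocytes and 0.0938%, 0.0968% and 0.0862% in nonmyocytes. These shares are scaled by the library totals alone, and the fractions did not overlap in either subunit. After TMM scaling, the large subunit genes summed to 3667 ± 399 CPM in cardiomyocytes and 1299 ± 110.1 CPM in nonmyocytes, and the small subunit genes to 1938 ± 241 CPM in cardiomyocytes and 734 ± 42.2 CPM in nonmyocytes (SD, n = 3 libraries each). In bulk RNA of this kind, fewer cells of a type and less RNA per cell cannot be told apart.

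The size of the difference varied between members. In the large subunit 12 of the 39 higher genes differed 4-fold or more, 22 between 2-fold and 4-fold, and 5 less than 2-fold. In the small subunit the counts were 5, 14 and 7 of 26. Against a null hypothesis of a 2-fold difference (edgeR glmTreat), 28 large and 12 small subunit genes were called higher, beside 20.5% of all genes tested. All 3 cardiomyocyte libraries lay above all 3 nonmyocyte libraries for 41 of 45 large and 24 of 28 small subunit genes, as they did for 34.1% of all genes tested. They lay below them for Mrpl52 alone among the members tested, and for 36.3% of all genes.

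Mrpl42, a mitochondria-specific protein of the large subunit, had the largest fold change of all members. It is annotated at chr10:94943440-94964561 on the minus strand of mm9, and 68.6% of its exon bases lie in a catalogued lncRNA gene of the same strand that holds 0 counts. Its level was 86.2, 96.4 and 86.9 CPM in cardiomyocytes, against 10.9, 14.3 and 6.91 CPM in nonmyocytes. Every cardiomyocyte library was thus several times above every nonmyocyte library, and the log2 fold change was 3.08 ± 0.25 (SE, edgeR adjusted p = 1.93e-07). Its promoter is shown because it heads the list, as the 300 bases that RefSeq gives for GRCm38.p6 at chr10:95501900-95502199 on the minus strand, 250 before and 50 after the transcript start. That build differs from the one of the counts. Capitals in this and the later promoters mark the motifs GCATGCG (core of the NRF-1 site), CCGGAAG (core of the site of ETS factors, which include GABP) and AAGATGG (core of the YY1 site), each searched on both strands. NRF-1, GABP and YY1 are nuclear regulators known for their sites at promoters of mitochondrial genes.
Mrpl42: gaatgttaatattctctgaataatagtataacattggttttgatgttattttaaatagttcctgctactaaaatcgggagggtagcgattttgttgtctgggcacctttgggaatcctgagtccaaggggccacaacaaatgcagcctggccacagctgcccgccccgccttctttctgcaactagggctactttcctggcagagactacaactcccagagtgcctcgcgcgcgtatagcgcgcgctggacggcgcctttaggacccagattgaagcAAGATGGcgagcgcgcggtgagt

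After Mrpl42 came Mrpl55, Mrpl3, Mrpl12 and Mrpl44. Mrpl55, the counterpart of a bacterial protein, held 67.2, 76.3 and 67.0 CPM in cardiomyocytes, against 13.7, 12.8 and 8.93 CPM in nonmyocytes, a log2 fold change of 2.57 ± 0.21 (edgeR adjusted p = 2.40e-07). Mrpl3, a core protein near the site of peptide bond formation whose human counterpart is mutated in an infantile cardiomyopathy, held 60.2, 82.1 and 75.9 CPM in cardiomyocytes, against 12.6, 14.1 and 10.4 CPM in nonmyocytes. In both genes the lowest cardiomyocyte library was far above the highest nonmyocyte library. The log2 fold change of Mrpl3 was 2.56 ± 0.21 (edgeR adjusted p = 2.03e-07). Mrpl44, a mitochondria-specific protein with a ribonuclease III-like fold that is also mutated in human infantile cardiomyopathy, held 94.3, 120.5 and 94.7 CPM in cardiomyocytes, against 19.9, 18.3 and 16.8 CPM in nonmyocytes. Its log2 fold change was 2.49 ± 0.19 (edgeR adjusted p = 8.48e-08).

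Proteins of the stalk, the flexible arm that brings elongation factors to the ribosome, differed among themselves. Mrpl12, whose copies form the tip of the stalk and which also binds the mitochondrial RNA polymerase, held 258, 275 and 208 CPM in cardiomyocytes, against 50.3, 41.5 and 37.2 CPM in nonmyocytes, a log2 fold change of 2.52 ± 0.18 (edgeR adjusted p = 7.40e-08). Mrpl10, which anchors Mrpl12 to the ribosome, held 46.1, 49.4 and 45.9 CPM in cardiomyocytes, against 40.5, 27.1 and 34.9 CPM in nonmyocytes. The libraries of Mrpl10 did not overlap, but the log2 fold change of 0.46 ± 0.19 missed the threshold (edgeR adjusted p = 0.0522). It was called higher under 8 of 16 alternatives, with an adjusted p of 0.0369 by limma voom, 0.0223 without cardiomyocyte library 1 and 0.0141 without nonmyocyte library 1. Other annotated genes cover 48.1% of its exon bases. Mrpl11, at the base of the stalk, held 71.9, 96.8 and 78.6 CPM in cardiomyocytes, against 37.3, 35.6 and 24.5 CPM in nonmyocytes, a log2 fold change of 1.35 ± 0.21 (edgeR adjusted p = 7.91e-05). A test of the difference between these 3 genes was not made.

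At the rim of the tunnel through which the new protein leaves, Mrpl22, Mrpl24, Mrpl45 and Mrpl47 were tested and all 4 were higher, at a median log2 fold change of 1.26. Mrpl45, which ties the mitoribosome to the inner membrane, held 128, 118 and 106 CPM in cardiomyocytes, against 51.0, 38.4 and 29.3 CPM in nonmyocytes, a log2 fold change of 1.56 ± 0.21 (edgeR adjusted p = 2.37e-05). The libraries of the fractions lay well apart. In the central protuberance, a knob at the top of the large subunit, Mrpl18, Mrpl38, Mrpl40 and Mrpl46 were tested and all 4 were higher, at a median of 1.78.

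The 6 large subunit genes that were not called spread on both sides of 0. Mrpl52, a mitochondria-specific protein, went the other way: it held 10.1, 14.8 and 18.7 CPM in cardiomyocytes, against 26.0, 19.7 and 20.4 CPM in nonmyocytes. Every cardiomyocyte library was lower than every nonmyocyte library, at a log2 fold change of -0.58 ± 0.27 (edgeR adjusted p = 0.0747). Of its exon bases 40.1% lie in a catalogued lncRNA gene of the same strand. DESeq2 gave it an adjusted p of 0.0320, and its adjusted p was 0.0368 with DESeq2 size factors and 0.0263 with upper quartile scaling in edgeR. Mrpl17, the counterpart of a bacterial protein, held 69.8, 90.5 and 72.0 CPM in cardiomyocytes, against 89.3, 85.3 and 69.5 CPM in nonmyocytes, and the fractions overlapped. Its log2 fold change was -0.07 ± 0.18 (edgeR adjusted p = 0.754), with none of its exon bases shared. Mrpl33, Mrpl20 and Mrpl49 had log2 fold changes of 0.31, 0.42 and 0.55 with edgeR adjusted p-values of 0.170, 0.0647 and 0.0904. Each was called higher under some alternatives, Mrpl33 under 1 (adjusted p = 0.0443 without nonmyocyte library 2), Mrpl20 under 5 and Mrpl49 under 7. By limma voom the adjusted p was 0.0466 for Mrpl20 and 0.0328 for Mrpl49. Without cardiomyocyte library 1 it was 0.0107 for Mrpl20 and 0.00360 for Mrpl49, and without nonmyocyte library 2 it was 0.0260 for Mrpl49. Of the 3, Mrpl20 had no overlap between fractions, with 45.3, 62.5 and 47.8 CPM in cardiomyocytes, against 38.1, 40.9 and 37.9 CPM in nonmyocytes. The smallest called difference of the large subunit was that of Mrpl54, a mitochondria-specific protein, with 121, 157 and 122 CPM in cardiomyocytes, against 108, 95.7 and 68.8 CPM in nonmyocytes, without overlap. Its log2 fold change was 0.56 ± 0.20 (edgeR adjusted p = 0.0242), and the adjusted p was 0.120 without cardiomyocyte library 2 and 0.0662 without nonmyocyte library 3. The promoters of Mrpl52 and Mrpl17 from the same RefSeq table are printed as those of the pair with fold changes under 0, at chr14:54426659-54426958 on the plus strand and chr7:105811038-105811337 on the minus strand. Both hold at least 1 of the 3 motifs.
Mrpl52: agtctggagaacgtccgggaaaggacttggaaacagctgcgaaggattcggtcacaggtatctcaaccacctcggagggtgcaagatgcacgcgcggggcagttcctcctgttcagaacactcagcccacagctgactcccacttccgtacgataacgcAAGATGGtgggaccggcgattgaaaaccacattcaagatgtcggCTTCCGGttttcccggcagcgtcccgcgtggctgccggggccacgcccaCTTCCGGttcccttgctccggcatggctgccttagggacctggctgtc
Mrpl17: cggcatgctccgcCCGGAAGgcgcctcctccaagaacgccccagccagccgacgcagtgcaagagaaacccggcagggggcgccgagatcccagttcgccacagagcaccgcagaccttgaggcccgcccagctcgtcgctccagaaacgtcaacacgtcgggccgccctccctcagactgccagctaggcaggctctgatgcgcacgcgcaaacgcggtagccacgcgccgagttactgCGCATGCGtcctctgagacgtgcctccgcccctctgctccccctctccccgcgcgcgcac

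**Figure D2:**
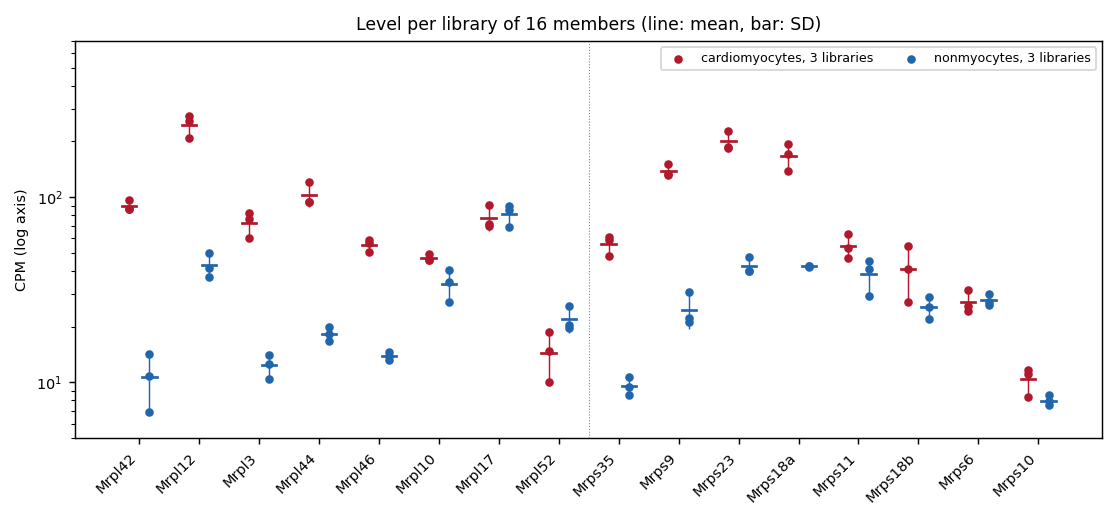
Level in CPM (log axis) of 16 members in each of the 6 libraries, cardiomyocytes in red beside nonmyocytes in blue, with a line at the mean and a bar for the SD, and large subunit genes left of the dotted line. Mrpl42 and Mrps35 show wide gaps between fractions, Mrpl17 and Mrps6 overlap, and Mrpl52 has its cardiomyocyte libraries below its nonmyocyte libraries.

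In the small subunit the largest fold changes were those of Mrps35, Mrps9, Mrps28, Mrps23 and Mrps31. Mrps35, a mitochondria-specific protein, held 48.0, 58.5 and 61.2 CPM in cardiomyocytes, against 8.51, 9.47 and 10.7 CPM in nonmyocytes, a log2 fold change of 2.55 ± 0.21 (edgeR adjusted p = 2.06e-07). Mrps9, the counterpart of a bacterial protein of the small subunit's head, held 132, 152 and 133 CPM in cardiomyocytes, against 21.1, 30.6 and 22.4 CPM in nonmyocytes, a log2 fold change of 2.49 ± 0.19 (edgeR adjusted p = 1.21e-07). Neither gene shares exon bases with another, and in both the fractions were far apart. Mrps28 held 61.0, 111 and 87.7 CPM in cardiomyocytes, against 20.0, 18.3 and 14.8 CPM in nonmyocytes, a log2 fold change of 2.30 ± 0.24 (edgeR adjusted p = 1.99e-06). Mrps23, a mitochondria-specific protein, held 187, 227 and 186 CPM in cardiomyocytes, against 47.3, 40.2 and 39.8 CPM in nonmyocytes. Its log2 fold change was 2.24 ± 0.17 (edgeR adjusted p = 1.02e-07). Mrps31, another mitochondria-specific protein, held 36.8, 45.7 and 53.9 CPM in cardiomyocytes, against 8.81, 11.1 and 11.0 CPM in nonmyocytes, a log2 fold change of 2.15 ± 0.23 (edgeR adjusted p = 2.53e-06). None of the 5 overlapped between fractions.

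At the other end of the small subunit stood Mrps6 and Mrps10, which were not called. Mrps6, the counterpart of a bacterial protein of the platform, held 31.6, 25.8 and 24.4 CPM in cardiomyocytes, against 29.9, 27.1 and 26.1 CPM in nonmyocytes, and the fractions overlapped throughout (log2 fold change -0.03 ± 0.20, edgeR adjusted p = 0.900). Mrps10 held 11.6, 11.1 and 8.39 CPM in cardiomyocytes, against 8.51, 7.92 and 7.53 CPM in nonmyocytes, with 1 cardiomyocyte library inside the range of the nonmyocytes (log2 fold change 0.37 ± 0.29, edgeR adjusted p = 0.284). Other annotated genes cover 43.8% of the exon bases of Mrps6 and 50.7% of those of Mrps10. The smallest called differences were those of Mrps11 at 0.50 (edgeR adjusted p = 0.0486), Mrps14 at 0.67 and Mrps18b at 0.69. Mrps33, at 1.01 ± 0.41 with 3.49, 4.61 and 5.53 CPM in cardiomyocytes, against 2.17, 2.61 and 2.10 CPM in nonmyocytes, was just past the threshold too (edgeR adjusted p = 0.0485). In edgeR its call was lost with DESeq2 size factors (adjusted p = 0.0524) and without cardiomyocyte library 2 (0.117) or 3 (0.201). It was also lost without nonmyocyte library 1 (0.0892), 2 (0.0685) or 3 (0.108), among other settings. Over the 16 alternatives its adjusted p ran from 0.011 to 0.503.

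Mrps14 and Mrps18b were called although their libraries overlapped. Mrps14, mutated in a human infantile cardiomyopathy, held 40.9, 77.2 and 60.8 CPM in cardiomyocytes, against 35.5, 43.4 and 34.5 CPM in nonmyocytes (edgeR adjusted p = 0.0203). Cardiomyocyte library 1 was below nonmyocyte library 2, and without cardiomyocyte library 2 the adjusted p was 0.147. Mrps22, the fourth member listed here with mutations in human cardiomyopathy beside Mrpl3, Mrpl44 and Mrps14, held 14.9, 26.2 and 24.7 CPM in cardiomyocytes, against 10.8, 12.7 and 8.85 CPM in nonmyocytes, without overlap. Its log2 fold change was 1.05 ± 0.28 (edgeR adjusted p = 0.00533), and all 4 of these genes were higher in cardiomyocytes. Mrps12, a core protein of the decoding site, held 47.7, 58.8 and 39.6 CPM in cardiomyocytes, against 21.7, 23.3 and 25.9 CPM in nonmyocytes (log2 fold change 1.04 ± 0.20, edgeR adjusted p = 0.000578).

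Mammals have 3 mitochondrial paralogs of the bacterial protein S18, each in a different place of the mitoribosome, and structures put Mrps18a in the large subunit despite its symbol. Mrps18a held 194, 171 and 139 CPM in cardiomyocytes, against 42.5, 42.2 and 42.7 CPM in nonmyocytes, a log2 fold change of 1.98 ± 0.17 (edgeR adjusted p = 4.11e-07). Mrps18b held 27.3, 54.3 and 40.8 CPM in cardiomyocytes, against 25.5, 22.1 and 29.0 CPM in nonmyocytes (0.69 ± 0.25, edgeR adjusted p = 0.0262, and 0.198 without cardiomyocyte library 2). Mrps18c held 24.4, 36.8 and 25.2 CPM in cardiomyocytes, against 16.5, 16.3 and 12.7 CPM in nonmyocytes (0.93 ± 0.24, edgeR adjusted p = 0.00453). Mrps18a thus showed the widest gap of the 3 and Mrps18b an overlap. Of the exon bases of Mrps18b 58.9% lie in catalogued lncRNA genes of the opposite strand, whereas Mrps18a and Mrps18c share none. The ratio of Mrps18a to Mrps18b was 7.08, 3.15 and 3.41 in cardiomyocytes, against 1.66, 1.91 and 1.47 in nonmyocytes, and that of Mrps18a to Mrps18c was 7.93, 4.65 and 5.54 in cardiomyocytes, against 2.58, 2.59 and 3.37 in nonmyocytes. Neither ratio overlapped between fractions, and both had an exact permutation p of 0.10, the smallest that 3 libraries against 3 can give (0.15 after adjustment over the 3 pairs). For Mrps18b to Mrps18c the ratio was 1.12, 1.48 and 1.62 in cardiomyocytes, against 1.55, 1.36 and 2.29 in nonmyocytes, with an overlap (exact permutation p = 0.50, two-sided). Mrps30, the other gene with a small subunit symbol whose protein sits in the large subunit, held 7.56, 10.9 and 8.78 CPM in cardiomyocytes, against 2.99, 2.22 and 3.73 CPM in nonmyocytes (log2 fold change 1.61 ± 0.36, edgeR adjusted p = 0.00152). Mrps36, now known as a component of the 2-oxoglutarate dehydrogenase complex, held 25.6, 49.6 and 32.3 CPM in cardiomyocytes, against 10.3, 11.1 and 13.6 CPM in nonmyocytes (1.63 ± 0.27, edgeR adjusted p = 0.000154). Subunit counts and medians elsewhere follow the symbols and keep Mrps18a, Mrps30 and Mrps36 in the small subunit. With Mrps18a and Mrps30 moved to the large subunit, 41 of 47 large and 24 of 26 small subunit genes were higher. The median log2 fold changes were then 1.62 and 1.095.

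Mrpl46 and Mrps11 are the only pair of members whose genes overlap. They lie on opposite strands of chromosome 7 in mm9, Mrpl46 at chr7:85920122-85928417 on the minus strand and Mrps11 at chr7:85928005-85937875 on the plus strand, so that their starts overlap by 413 bases, and they share 173 exon bases. Mrpl46 held 57.0, 58.6 and 50.6 CPM in cardiomyocytes, against 13.3, 13.8 and 14.7 CPM in nonmyocytes (log2 fold change 1.99 ± 0.19, edgeR adjusted p = 8.61e-07). Mrps11 held 53.5, 63.4 and 46.8 CPM in cardiomyocytes, against 40.8, 45.3 and 29.3 CPM in nonmyocytes (0.50 ± 0.21, edgeR adjusted p = 0.0486). The pair was thus at near-equal counts in cardiomyocytes, while in nonmyocytes Mrps11 held the larger count. The ratio of Mrpl46 to Mrps11 was 1.07, 0.925 and 1.08 in cardiomyocytes, against 0.325, 0.305 and 0.50 in nonmyocytes, a log2 difference of 1.47 with an exact permutation p of 0.10, the smallest possible here. The call of Mrps11 was lost under several alternatives, with an adjusted p of 0.204 without cardiomyocyte library 2 and 0.128 without nonmyocyte library 3. The libraries were not strand-specific, so reads in the shared bases cannot be given to either strand. The RefSeq promoters of this pair are shown because they share 141 bases, with Mrpl46 at chr7:78783040-78783339 on the minus strand and Mrps11 at chr7:78782881-78783180 on the plus strand of GRCm38.p6.
Mrpl46: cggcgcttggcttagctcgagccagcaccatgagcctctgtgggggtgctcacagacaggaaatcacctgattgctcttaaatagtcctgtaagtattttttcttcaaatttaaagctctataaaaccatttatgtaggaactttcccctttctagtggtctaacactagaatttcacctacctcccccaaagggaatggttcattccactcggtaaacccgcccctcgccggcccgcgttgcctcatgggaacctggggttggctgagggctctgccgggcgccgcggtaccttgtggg
Mrps11: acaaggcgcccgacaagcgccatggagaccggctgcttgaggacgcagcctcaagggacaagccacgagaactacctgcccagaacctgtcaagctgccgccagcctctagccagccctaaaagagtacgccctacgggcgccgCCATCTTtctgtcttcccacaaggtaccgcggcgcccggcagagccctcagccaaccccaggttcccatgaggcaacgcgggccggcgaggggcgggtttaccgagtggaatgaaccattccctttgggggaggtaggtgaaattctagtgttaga

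RefSeq promoters of the same 300 bases were found for 67 of the 77 members. At least 1 of the 3 motifs was present in 35 of the 67 (52.2%), beside 17.7% of 27025 genes in the table. CCGGAAG was present in 34.3% of member promoters and 9.12% of all promoters, AAGATGG in 19.4% and 6.48%, and GCATGCG in 11.9% and 3.64%. In the large subunit 17.1% and in the small subunit 3.85% of promoters held GCATGCG, which is 7 of 41 and 1 of 26. GCATGCG and its reverse complement CGCATGC overlap each other in 6 of their 7 letters, and the last 3 letters of CCGGAAG are the first 3 of AAGATGG, so neighbouring matches are not independent. Members called higher and members not called both often held a motif, 29 of 56 (51.8%) and 5 of 8 (62.5%). Among those called higher, 12 of the 28 with the larger fold changes held one, beside 17 of the other 28. A match is a run of letters and not evidence of binding.

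The ratios within pairs of genes given above were not scaled to exon length. Otherwise, levels of different genes were set side by side only as CPM per kb of exon length. That length takes in every exon base of the deposited annotation. On this scale the 45 large subunit genes tested had a median level of 39.5 CPM per kb in cardiomyocytes and 15.2 in nonmyocytes, and the 28 small subunit genes 27.4 in cardiomyocytes and 12.7 in nonmyocytes. In cardiomyocytes the highest large subunit genes were Mrpl28, Mrpl34 and Mrpl54, at 241 ± 45.01, 189.8 ± 27.9 and 162 ± 24.99 CPM per kb, and the lowest Mrpl1, Mrpl41 and Mrpl47, at 2.48 ± 0.160, 4.67 ± 2.16 and 7.08 ± 2.68. The highest 3 overlapped in their mean ± SD ranges, Mrpl34 and Mrpl54 as well as Mrpl28 and Mrpl34, so their order is not set by these libraries. In the small subunit Mrps16, Mrps23 and Mrps28 were highest in cardiomyocytes, at 236 ± 41.1, 128 ± 15.1 and 111 ± 32.1 CPM per kb, and Mrps10, Mrps33 and Mrps30 lowest, at 1.28 ± 0.216, 3.67 ± 0.826 and 5.71 ± 1.07. Mrps16 stood above Mrps23 by more than their SDs, whereas Mrps23 and Mrps28 overlapped.

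The genes at the ends of this order on the scale per kb were higher in cardiomyocytes with the exception of Mrps10. Mrpl28, the counterpart of a bacterial protein, held 332, 348 and 242 CPM in cardiomyocytes, against 68.0, 61.5 and 55.8 CPM in nonmyocytes (log2 fold change 2.31 ± 0.18, edgeR adjusted p = 1.73e-07). Mrpl34, another such counterpart, held 111, 133 and 100.4 CPM in cardiomyocytes, against 29.5, 36.7 and 29.6 CPM in nonmyocytes (1.85 ± 0.18, edgeR adjusted p = 1.46e-06). In both, each cardiomyocyte library was well above each nonmyocyte library. Mrps16, also the counterpart of a bacterial protein, held 116, 159.7 and 125 CPM in cardiomyocytes, against 50.4, 46.0 and 36.2 CPM in nonmyocytes (1.60 ± 0.19, edgeR adjusted p = 9.06e-06). At the low end, Mrpl1, the counterpart of the protein of the bacterial L1 stalk, held 9.88, 11.1 and 11.1 CPM in cardiomyocytes, against 1.79, 4.45 and 2.17 CPM in nonmyocytes (1.95 ± 0.39, edgeR adjusted p = 0.000748). The fractions did not overlap in either gene. Mrpl47 held 15.5, 23.4 and 33.7 CPM in cardiomyocytes, against 3.73, 6.86 and 7.37 CPM in nonmyocytes (2.03 ± 0.35, edgeR adjusted p = 0.000209). Mrpl41, a mitochondria-specific protein, held 2.13, 5.44 and 3.30 CPM in cardiomyocytes, against 0.970, 1.45 and 1.01 CPM in nonmyocytes (1.70 ± 0.53, edgeR adjusted p = 0.0134, and 0.124 without cardiomyocyte library 2). These last genes had wider relative spreads between libraries, and in neither did the fractions overlap.

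In nonmyocytes Mrpl54 was the highest large subunit gene, at 110.2 ± 24.4 CPM per kb, and Mrpl1 the lowest, at 0.653 ± 0.334. In the small subunit Mrps16 was highest, at 78.1 ± 12.9 CPM per kb, and Mrps10 lowest, at 0.989 ± 0.0611. Across the 73 members tested, the log2 levels per kb of the fractions had a Pearson's r of 0.892 and a Spearman's rho of 0.852, as a description across genes, which share the library, the gene length and the annotation. Some low levels go with long or shared annotation, since Mrps10 is given 8079 exon bases, 50.7% of them in other genes, and Mrpl1 4295, none of them shared. Mrps30 has 60.1% and Mrpl41 58.8% of their exon bases in other genes. With the whole CPM of a gene divided by its exon bases in no other gene, Mrpl42 had the highest level of all members in cardiomyocytes. It stood there at 430.0 CPM per kb, beside 51.2 in nonmyocytes. This value rests on 209 bases and assumes that no read in the shared bases was counted, which was not tested. Over all exon bases the level of Mrpl42 was 135 CPM per kb in cardiomyocytes and 16.1 in nonmyocytes. Per kb of unshared bases, under the same assumption, Mrps30 stood at 14.3 CPM in cardiomyocytes. That was above Mrps5 at 7.45, Mrps35 at 10.1 and Mrps26 at 10.8, so its low place depends on the scale.

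**Figure D3:**
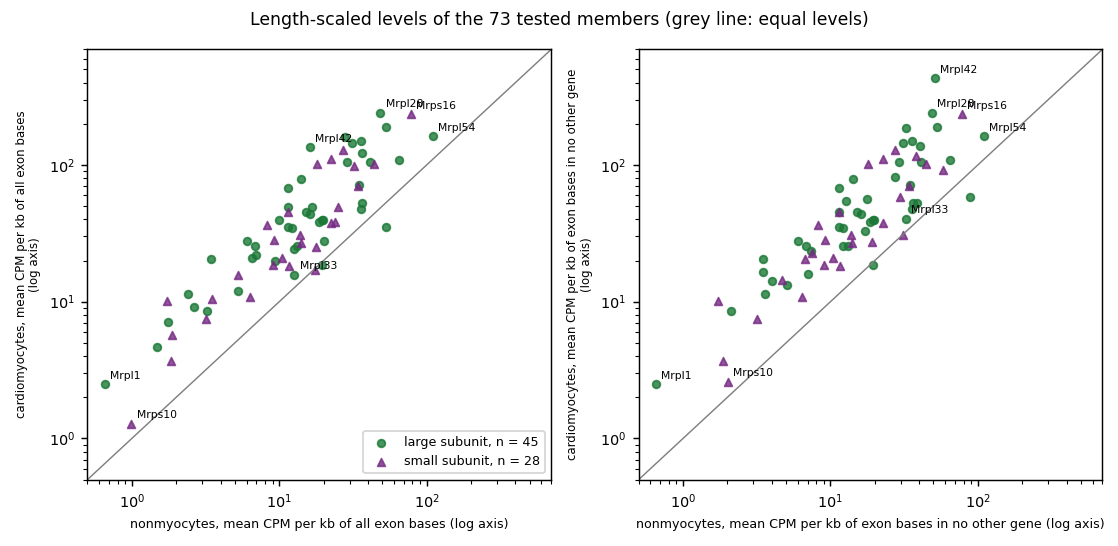
Mean level of the 73 members tested in cardiomyocytes (vertical log axis) against nonmyocytes (horizontal log axis), in CPM per kb of all exon bases on the left and of exon bases in no other annotated gene on the right. Most points lie above the grey line of equal levels, and Mrpl42 moves to the top of the right panel.

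The 4 members that were not tested all share exon bases with other annotated genes. Mrpl23 had 2, 25 and 12 counts in cardiomyocytes and 1, 2 and 10 in nonmyocytes, with 40.7% of its exon bases in other genes, and was not tested. Mrpl53 had 0 counts in all cardiomyocyte libraries and 0, 4 and 0 in nonmyocytes, and shares 87.1% of its exon bases, nearly all with Ccdc142. Mrps34 had 0 counts in all 6 libraries and shares 99.6% of its exon bases with Mapk8ip3, Nme3 and a catalogued lncRNA gene. Over all genes, 370 protein-coding ones have every exon base in other annotated genes, and all 370 had 0 counts in every library, so the level of Mrps34 and Mrpl53 cannot be read from this table. Mrpl48 had 2, 13 and 9 counts in cardiomyocytes and 0 in all nonmyocyte libraries, with 59.8% of its exon bases shared. Its pseudogene Mrpl48-ps, on chromosome 4 with no shared bases, had 88, 516 and 660 counts in cardiomyocytes and 129, 94 and 102 in nonmyocytes, or 17.1, 26.7 and 32 CPM in cardiomyocytes, against 9.63, 9.08 and 7.92 CPM in nonmyocytes. How reads that match both the gene and its pseudogene were counted is not given in the sources used here, so both values are uncertain, as is the call of Mrpl48-ps (log2 fold change 1.52 ± 0.28, edgeR adjusted p = 0.000338). Of the 77 members 30 have over 10% of their exon bases in other genes, and 42 have none. Among the 47 tested members with at most 10% shared, 44 were higher in cardiomyocytes.

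In cardiomyocytes the coefficient of variation over the 3 libraries had a median of 15.4% in the large and 17.4% in the small subunit, and in nonmyocytes 15.1% in the large and 11.9% in the small subunit. It was lowest for Mrps18a in nonmyocytes (0.536%) and highest for Mrpl1 in nonmyocytes (51.2%). Cardiomyocyte library 2 was the highest of its fraction for 35 of 45 large and 21 of 28 small subunit genes, and library 1 the lowest for 29 and 19. The sum of all genes after scaling had the same order, at 1154000.0, 1391000.0 and 1270000.0 CPM in cardiomyocyte libraries 1, 2 and 3. That sum is set by the scaling itself, and whether the order is particular to the members was not tested. As a share of the unscaled counts, the large subunit was nearly level in libraries 1 and 2, at 0.298% and 0.297%, beside 0.270% in library 3. The small subunit was highest in library 2, at 0.159%, beside 0.153% in library 1 and 0.145% in library 3. In the nonmyocytes no library was highest for more than 19 of 45 or 11 of 28 genes, and library 3 was the lowest for 22 of 45 and 16 of 28.

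Of the 46 members with a bacterial counterpart 45 were tested and 39 were higher, at a median log2 fold change of 1.23. Of the 27 mitochondria-specific members 24 were tested and 22 were higher, at a median of 1.61. Over all genes tested, 31.6% were higher. Mrpl48-ps, Mrps18a, Mrps18b and Mrps36 were placed in neither group, and the difference between the groups was not tested. Mitoribosomal proteins with other symbols went the same way, with 5 of 6 tested higher and 1 not called, at a median of 0.98. Dap3, a GTP-binding protein of the small subunit, held 126, 150.2 and 121 CPM in cardiomyocytes, against 48.7, 53.7 and 42.8 CPM in nonmyocytes (log2 fold change 1.45 ± 0.17, edgeR adjusted p = 7.29e-06). Ptcd3, which also belongs to the small subunit, held 44.95, 65.7 and 74.3 CPM in cardiomyocytes, against 8.96, 17.6 and 14.8 CPM in nonmyocytes (2.17 ± 0.27, edgeR adjusted p = 1.29e-05). In both the fractions were well apart, whereas Mrp63 was the gene not called, and Chchd1, with 100% of its exon bases shared, was at 0 counts.

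Other genes that serve mitochondrial translation were mostly higher too. Of 16 listed translation factors and helpers 13 were tested, with 11 higher, 1 lower and 1 not called, at a median log2 fold change of 1.83. Gfm1, the elongation factor that moves the ribosome along, held 184, 299 and 286 CPM in cardiomyocytes, against 25.7, 32.2 and 23.0 CPM in nonmyocytes (3.25 ± 0.22, edgeR adjusted p = 4.02e-08). Gfm2, its relative that parts the subunits after termination, had a log2 fold change of 2.53 ± 0.28 (edgeR adjusted p = 4.35e-06). Against these, Mtfmt, which formylates the initiator methionyl-tRNA, was lower, with 2.33, 3.94 and 4.27 CPM in cardiomyocytes, against 6.42, 8.31 and 8.07 CPM in nonmyocytes (-1.07 ± 0.36, edgeR adjusted p = 0.0201). Of 24 listed assembly factors 16 were tested, with 13 higher, 1 lower and 2 not called, at a median of 1.57. Grsf1, an RNA-binding protein of mitochondrial RNA granules, led them at 2.39 ± 0.22 (edgeR adjusted p = 7.11e-07), followed by Rnmtl1, a methyltransferase of mitochondrial ribosomal RNA, at 2.38 ± 0.37, and Mpv17l2 was the lower one at -0.63 ± 0.22 (edgeR adjusted p = 0.0219).

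Mitochondrial aminoacyl-tRNA synthetases and the amidotransferase subunits, which charge the tRNAs, were higher for 16 of 19 tested, lower for 1 and not called for 2, at a median log2 fold change of 1.45. Fars2, the enzyme for phenylalanine, held 116, 119 and 106 CPM in cardiomyocytes, against 9.33, 11.4 and 16.7 CPM in nonmyocytes (3.19 ± 0.23, edgeR adjusted p = 5.59e-08). Pet112l, a subunit of the amidotransferase, followed at 2.98 ± 0.22. Cars2, the enzyme for cysteine, was lower at -1.46 ± 0.60 (edgeR adjusted p = 0.0475), with at most 2.33 CPM in any library and 82.2% of its exon bases shared. Of 8 tested genes for copying and transcribing mitochondrial DNA 6 were higher and 2 not called, led by Peo1, the replicative helicase, at 2.59 ± 0.19 (edgeR adjusted p = 9.79e-08). Mterfd3 followed at 2.33 ± 0.42, and Polg, the replicative polymerase, stood at 1.18 ± 0.18. Top1mt, a topoisomerase, was one of those not called, at -0.58 ± 0.27 (edgeR adjusted p = 0.0829), and Ssbp1 the other.

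The nuclear-coded subunits of oxidative phosphorylation had larger differences and the cytosolic ribosome the opposite sign. Of 72 tested subunits of complexes I to V, 69 were higher, 1 lower and 2 not called, at a median log2 fold change of 3.13. Atp5a1, the alpha subunit of ATP synthase, had a log2 fold change of 3.999. The largest fold changes were those of the muscle isoforms Cox6a2 (7.24 ± 0.25) and Cox8b (7.23 ± 0.24), and the non-muscle isoform Cox6a1 was the lower one at -0.97 ± 0.18 (edgeR adjusted p = 0.000413). Of 71 tested genes of the cytosolic ribosome 54 were lower, 1 (Rpl30) higher and 16 not called, at a median of -1.10. Rpl24 and Rps6 had the largest called decreases (-2.35 ± 0.70 and -2.18 ± 0.69), and Rpl8 stood at -0.83 ± 0.16. Counts of the cytosolic ribosome are uncertain, because processed pseudogenes close in sequence to its genes can take their reads. The differences between these lists were not tested.

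**Figure D4:**
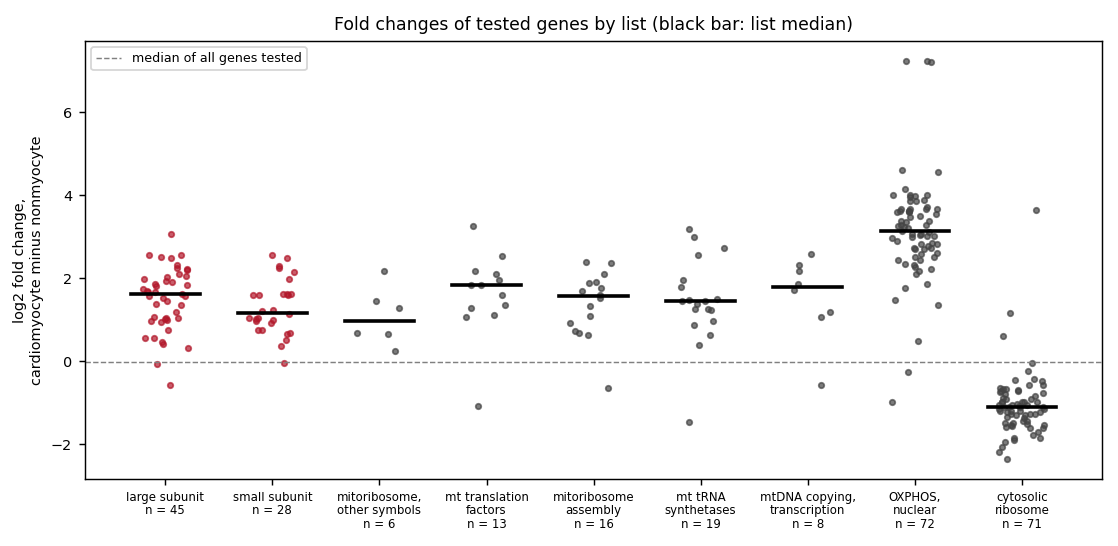
Log2 fold change (cardiomyocyte minus nonmyocyte) of each tested gene by list, with a black bar at the list median and a dashed line at the median of all genes tested. The bars stand at 1.62 and 1.17 for the large and small mitoribosomal subunit, at 3.13 for oxidative phosphorylation and at -1.10 for the cytosolic ribosome.

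Regulators known for driving mitochondrial genes were divided in about the proportions of all genes. Of 9 tested, 3 were higher, 3 lower and 3 not called, beside 31.6% higher and 32.1% lower over all genes tested. Esrrg, an orphan nuclear receptor, held 57.2, 56.9 and 66.6 CPM in cardiomyocytes, against 0.597, 0.193 and 0.698 CPM in nonmyocytes (6.85 ± 0.33, edgeR adjusted p = 1.26e-09). Ppargc1b, a coactivator of such receptors, held 153, 157 and 157 CPM in cardiomyocytes, against 1.64, 1.64 and 2.02 CPM in nonmyocytes (6.45 ± 0.21, edgeR adjusted p = 1.18e-10). In both genes the fractions lay far apart. Esrra was higher as well, at 2.59 ± 0.16, whereas Myc (-1.24 ± 0.31), Gabpb1 (-1.07 ± 0.38) and Pprc1 (-0.73 ± 0.17) were lower. Nrf1, Yy1 and Gabpa were not called. Nrf1 held 14.7, 14.7 and 14.4 CPM in cardiomyocytes, against 22.3, 13.1 and 19.6 CPM in nonmyocytes (edgeR adjusted p = 0.285), and Yy1 held 18.2, 20.3 and 21.8 CPM in cardiomyocytes, against 16.9, 21.4 and 22.9 CPM in nonmyocytes (edgeR adjusted p = 0.956). Gabpa, the DNA-binding part of GABP, held 40.7, 43.2 and 54.7 CPM in cardiomyocytes, against 25.6, 38.1 and 38.4 CPM in nonmyocytes, where the fractions did not overlap (edgeR adjusted p = 0.0831). Ppargc1a, with 97.8% of its exon bases shared, was not tested.

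The direction of the subunit medians did not turn under any alternative setting tried. Over the 6 fits that leave out 1 library each, the large subunit median stayed between 1.54 and 1.71 and the small subunit median between 1.04 and 1.302. Of the 73 members tested, 44 kept their direction and call under all 16 alternatives that leave the threshold of a call as it is. Of the 65 called members 21 lost the call or turned under at least 1 of these 16, all 21 of them with library totals, and 6 of them also under others. The test against a 2-fold difference is not among the 16, and it called 28 large and 12 small subunit genes.

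**Figure D5:**
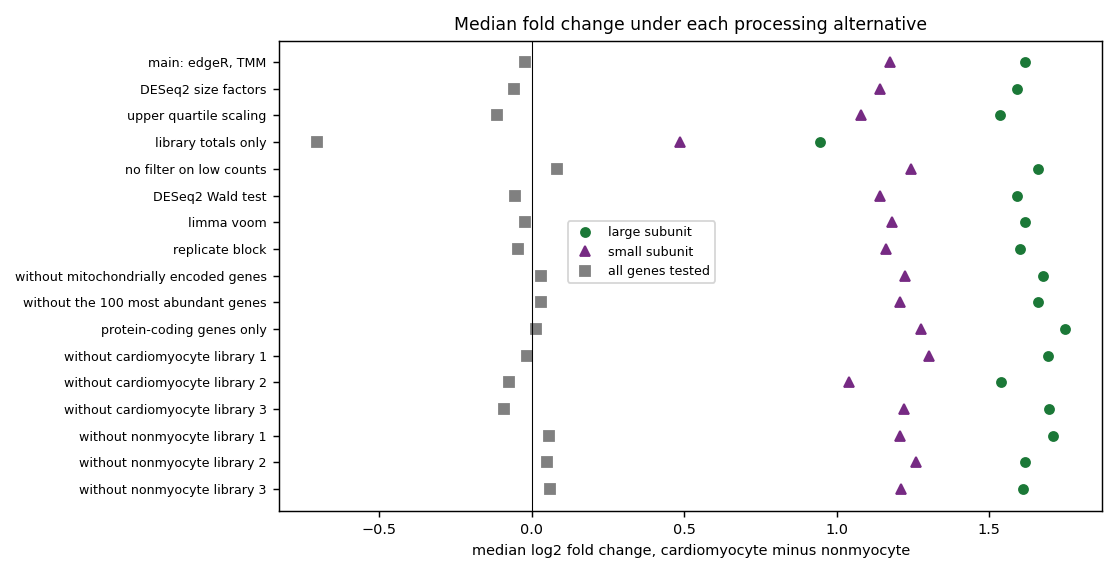
Median log2 fold change (cardiomyocyte minus nonmyocyte) of the large subunit, the small subunit and all genes tested under the settings of the first fit and of each alternative, one per line. With library totals the 3 medians stood at 0.94, 0.49 and -0.70, and the distance of the subunits to all genes was close to that under the other settings. A change of scaling alone could hardly move that distance, because it shifts all genes by nearly the same amount.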

How the data were processed

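Gene counts of the 6 polyadenylated RNA libraries were used as the authors deposited them, whole-number counts that were not normalised, per the file itself. Per the labels' protocols the libraries were single-end and not strand-specific. The submitters' processing notes give Bowtie, TopHat 1.3.0, HTSeq, DESeq, edgeR and the build mm9 (NCBIM37), with no roles. Exon lengths, positions and bases shared between genes were taken from the deposited annotation, which joins Ensembl and NONCODE genes. The small RNA libraries were not used.

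The filter on low counts was filterByExpr with a minimum count of 10, libraries were scaled by TMM, and cardiomyocytes were compared with nonmyocytes by edgeR 4.0.16 (glmQLFit, robust, and glmQLFTest, two-sided, no block) in R 4.3.3, adjusted by Benjamini-Hochberg over 14734 genes. The SE is the absolute log2 fold change over the square root of F. The biological coefficient of variation was 0.251. Alternatives were run with limma 3.58.1 and DESeq2 1.42.0, and the scripts were tested on simulated data. Promoters came from RefSeq, and ratios were tested by exact permutation over libraries, two-sided.

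The members, lists and motifs were chosen with earlier results of these data known. Full values were given for the 5 called members with the largest change per direction and subunit, the 3 highest and lowest per kb, called members with overlapping libraries and a fixed set of stalk, tunnel, decoding, S18 and cardiomyopathy members. For the other lists the rule named the 2 largest changes each way, the gene with the highest CPM and the genes against the trend. Other genes (Mrps11, Mrpl46, Mrps33, Mrps36, Dap3, Nrf1, Yy1 and Gabpa among them) were picked after their values were seen. Levels per unshared base and the fit of protein-coding genes alone were added after seeing the data. Which heart a library came from is not labelled, and p-values therefore reflect library-to-library spread alone, part of which may be technical.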

Additional observations from a re-analysis of the deposited data

How the results depend on the processing

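Of the alternatives run, scaling by library totals moved the subunit medians most. With library totals alone, 7106 genes were called lower over the whole table, the large subunit median was 0.94 with 2 genes lower, and the small subunit median 0.49 with 15 genes higher and 1 lower. Under that scaling the log2 fold change turned negative for Mrpl10 (-0.21), Mrpl20 (-0.27), Mrpl33 (-0.37), Mrpl49 (-0.15), Mrpl54 (-0.13), Mrps10 (-0.31), Mrps11 (-0.18), Mrps14 (-0.0307) and Mrps18b (-0.0143). Mrpl52 was the 1 large subunit gene called lower with DESeq2 size factors, with upper quartile scaling and with the DESeq2 Wald test. In the test against a 2-fold difference, 3023 genes were higher and 2996 lower over the table, and 12 small subunit genes higher. Leaving out members with over 10% shared bases left 24 large subunit genes higher of 27, at a median of 1.56. In the small subunit it left 20 higher of 20, at a median of 1.17. The near-zero values of Mrpl17 and Mrps6 changed sign. Mrpl17 stood at 0.00013 with no filter and 0.0343 with protein-coding genes alone, and Mrps6 at 0.0395 with no filter, 0.0303 without mitochondrially encoded genes, 0.0122 without the 100 most abundant genes and 0.0851 with protein-coding genes alone. With 1 library left out, Mrpl17 ranged between -0.195 and 0.0640 and Mrps6 between -0.112 and 0.0949. In those fits 37 to 42 large and 22 to 26 small subunit genes were higher, with both lowest counts without cardiomyocyte library 2. The cause of these shifts was not tested. Whether libraries with the same number pair was not settled. Their deviations from the fraction mean correlated at 0.229, 0.0553 and 0.166, beside -0.249 to 0.114 for libraries of different numbers. Cardiomyocyte library 2 correlated better with nonmyocyte library 3 (0.0776) than with its own number. With the replicate number as a block, 41 large and 25 small subunit genes were higher, and 4656 genes higher and 4843 lower over the table. Mrpl10 (edgeR adjusted p = 0.0334) and Mrpl49 (0.0210) were then called and Mrps33 was not (0.0987). Cardiomyocyte library 1, with 5956831 counts, limits the members of few counts such as Mrpl23 and Mrpl41.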
